A study of Homo sapiens with 6 samples.

Results

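The CEACAM genes (carcinoembryonic antigen-related cell adhesion molecules) were examined in 2 hydrogel cultures of A549, an established human line derived from lung adenocarcinoma. The family was taken as the 10 genes CEACAM1, CEACAM3, CEACAM4, CEACAM5, CEACAM6, CEACAM7, CEACAM8, CEACAM16, CEACAM19 and CEACAM21, each matched by symbol to its row among the 62703 genes of the deposited count table. The family was chosen from results of the hydrogel contrast itself, so its fold changes, calls and adjusted p-values are given as a description and nothing is supported with them. Of the 10 members, 6 passed the filter on low counts and 4 (CEACAM4, CEACAM7, CEACAM8 and CEACAM21) did not.

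CEACAM proteins belong to the immunoglobulin superfamily. An N-terminal variable-like domain, followed in most members by constant-like domains, binds the same or another CEACAM on a neighbouring cell, and several bacteria use it as a docking site. CEACAM5, CEACAM6, CEACAM7 and CEACAM8 are held in the membrane by a glycosylphosphatidylinositol (GPI) anchor. CEACAM1, CEACAM3, CEACAM4, CEACAM19 and CEACAM21 span it with a transmembrane segment, and CEACAM16 is secreted. CEACAM5 is the carcinoembryonic antigen measured in serum as a tumour marker, and CEACAM6 is well known on epithelial cells and granulocytes and in lung adenocarcinoma.

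The groups were A549 cells in the AlgLung hydrogel and A549 cells in the S-AlgLung hydrogel, with 3 libraries each. The labels give the line, the hydrogel and the replicate number but no composition, stiffness, cell density or culture time, and they do not explain the S. The title of the series names matrix sulfation, cancer stemness and invasiveness as its subject. The labels describe how the line was kept in DMEM/F12 with serum, and do not say whether libraries of a hydrogel came from separate cultures. The p-values therefore measure only how these libraries vary, and part of that variation may be technical.

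Libraries held 22978408 to 26495444 counts in total. S-AlgLung replicate 3 stood apart from the others on the second principal component of log2 CPM (counts per 1e6 counts of a library), which held 28.9% of the variance. Its score was 49.2, against -20.2 and -33.4 in the other S-AlgLung libraries and -19.2 to 21.8 in AlgLung. That library also had 28413 genes with a count, against 25729 to 26007 in the others. The epithelial keratins KRT8 and KRT18 were abundant, at means of 7352 and 3723 CPM in AlgLung and 5125 and 2535 CPM in S-AlgLung. The epithelial gene EPCAM was low, at means of 1.951 CPM in AlgLung and 3.825 CPM in S-AlgLung. The alveolar type 2 genes SFTPB, SFTPC and NKX2-1 had 5, 5 and 1 counts over all 6 libraries, and NAPSA had 178. Here and below, CPM is scaled with TMM factors (trimmed mean of M values), a gene is called where the Benjamini-Hochberg adjusted p of edgeR's quasi-likelihood test over 18544 tested genes is under 0.05, and differences are S-AlgLung minus AlgLung on the log2 scale.

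All 10 members lie on chromosome 19 (GRCh38, coordinates as in the deposited table). A first group holds CEACAM21 (chr19:41549518-41586844, plus strand), CEACAM4 (chr19:41619015-41627074, minus), CEACAM7 (chr19:41673303-41706976, minus), CEACAM5 (chr19:41708585-41730433, plus), CEACAM6 (chr19:41750977-41772211, plus) and CEACAM3 (chr19:41796587-41811554, plus). CEACAM1 (chr19:42507304-42561234, minus) and CEACAM8 (chr19:42580243-42595055, minus) lie further along, and CEACAM19 (chr19:44662278-44684359, plus) and CEACAM16 (chr19:44699151-44710718, plus) lie further still.

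Several members are close copies of each other. Sequences are shown for the 4 tested members whose groups did not overlap. Among all tested genes the groups did not overlap with S-AlgLung above for 10.4%, and in either direction for 18.4%. For these 4 members a stretch of 138 coding bases from the exon of the N-terminal domain was taken. It is the part of CEACAM6 (chr19:41756600-41756737, coding exon) that a readthrough gene model also covers, and the counterparts in CEACAM5 (chr19:41709680-41709817), CEACAM3 (chr19:41797589-41797726) and CEACAM1 (chr19:42527263-42527400, minus strand) were located in the transcripts of GENCODE release 29. Sequences run 5′ to 3′ and capitals mark letters that differ from CEACAM6.
CEACAM6: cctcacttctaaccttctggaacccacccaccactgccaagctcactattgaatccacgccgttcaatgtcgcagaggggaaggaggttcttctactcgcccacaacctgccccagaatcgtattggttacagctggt
CEACAM5: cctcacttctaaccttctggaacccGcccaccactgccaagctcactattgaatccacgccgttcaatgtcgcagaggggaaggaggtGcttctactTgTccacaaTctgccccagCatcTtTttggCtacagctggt
CEACAM3: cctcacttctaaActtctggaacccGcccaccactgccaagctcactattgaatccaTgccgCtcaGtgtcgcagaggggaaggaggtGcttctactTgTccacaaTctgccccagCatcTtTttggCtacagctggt
CEACAM1: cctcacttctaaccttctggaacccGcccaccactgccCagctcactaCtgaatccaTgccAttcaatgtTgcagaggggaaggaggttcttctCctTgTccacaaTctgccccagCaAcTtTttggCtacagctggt
CEACAM5 was identical to CEACAM6 at 93.5% of these bases, CEACAM3 at 90.6% and CEACAM1 at 89.1%. CEACAM8 had 83.3% identity, CEACAM7 77.5%, CEACAM4 72.5% and CEACAM21 70.3%. These comparisons ran without gaps from the start of the exon, and CEACAM16 and CEACAM19 were too distant to be compared in this way.

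These copies bear on how reads were assigned. The longest identical run of coding bases was 117 between CEACAM1 and CEACAM3, 78 between CEACAM3 and CEACAM5, and 65 between CEACAM5 and CEACAM6. No window of 100 bases from CEACAM5 or CEACAM6 transcripts occurred unchanged in another gene of the CEACAM and pregnancy-specific glycoprotein (PSG) families. For CEACAM3 0.512% of such windows did, and for CEACAM1 0.302%. With windows of 50 bases the identical shares were 2.64% for CEACAM5, 4.06% for CEACAM6, 4.02% for CEACAM3 and 2.62% for CEACAM1. With 2 mismatches allowed in 100 bases the shares were 3.38% for CEACAM5, 7.55% for CEACAM6, 2.39% for CEACAM3 and 3.35% for CEACAM1. No source used here gives the read length or the treatment of reads with several alignments, so values of CEACAM5, CEACAM6, CEACAM3 and CEACAM1 carry an uncertainty from shared reads that could not be sized. It does not weigh equally on them. CEACAM3 had 459 counts over the 6 libraries against 227506 for CEACAM6. A small share of CEACAM6 reads assigned to CEACAM3 would therefore be a large part of its value, which was not tested.

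CEACAM5 and CEACAM6 also share letters just before their RefSeq starts. RefSeq promoter windows (GRCh38.p14, 250 bases upstream of a start) were at hand for 8 members. RefSeq starts are not always the outermost ends of the spans given above: the start used lies 41 bases inside the table's span for CEACAM5, 4553 for CEACAM6, 18706 for CEACAM7 and 32753 for CEACAM1, and at its edge for CEACAM3. The 30 bases from 69 to 40 before the RefSeq start are shown for 5 members, because in CEACAM5 and CEACAM6 they hold an E-box, the site class bound by upstream stimulatory factors. Capitals mark matches to any of 6 motifs searched on both strands.
CEACAM5 (chr19:41708557-41708586, plus strand): gaataaagaccaCACCCatgaccCACGTGa
CEACAM6 (chr19:41755461-41755490, plus strand): tgaacagagaccgCACCCatgaccCACGTG
CEACAM7 (chr19:41688310-41688339, minus strand): ctgagcagagacccCACCCctggaccatgt
CEACAM3 (chr19:41796518-41796547, plus strand): gagcttCACCCatgaccctggaaagtgctc
CEACAM1 (chr19:42528521-42528550, minus strand): agcttcctggacaaaccCCGCCCcagcaca
The E-box CACGTG began 46 bases before the RefSeq start in CEACAM5 and 45 bases before it in CEACAM6. It was in no other member's window, and 6.31% of 34788 RefSeq windows of the same length hold it. The CACCC box (CACCC) preceded it at 57 bases in CEACAM5 and 56 in CEACAM6, and stood at 63 bases in CEACAM3 and 55 in CEACAM7. That motif is common, in 54.7% of windows, and it was also in windows of CEACAM4, CEACAM8 and CEACAM21. CEACAM1 held a GC box (GGGCGG, 42.6% of windows) on the other strand at 52 bases and an interferon-stimulated element (3.02% of windows) at 116 bases. The GC box was also in CEACAM6 at 211 bases, in CEACAM8 at 50, and in CEACAM21 at 45 and 50 bases before separate starts. The TATA box (TATAAA, 10.8% of windows) was found in CEACAM6 at 139 bases only, and the AP-1 motif (TGANTCA, 6.59% of windows) in no member's window. No searched motif overlapped another in these windows. Over the whole 250 bases, CEACAM5 and CEACAM6 were 73.6% identical, CEACAM5 and CEACAM7 80.5%, and CEACAM5 and CEACAM1 64.4%. Matches describe the letters only.

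In all, 3 members were called higher in S-AlgLung: CEACAM5, CEACAM6 and CEACAM3. None was called lower, and CEACAM1, CEACAM16 and CEACAM19 were tested and not called. Over all tested genes 3.15% were called higher (584), 1.99% lower (369) and 5.14% in either direction, with 333 higher and 335 lower when libraries were scaled by total counts. Since the contrast chose the family, nothing is read from the members' count beside these shares. The plot of values by library shows every member with enough reads to place.

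**Figure D1:**
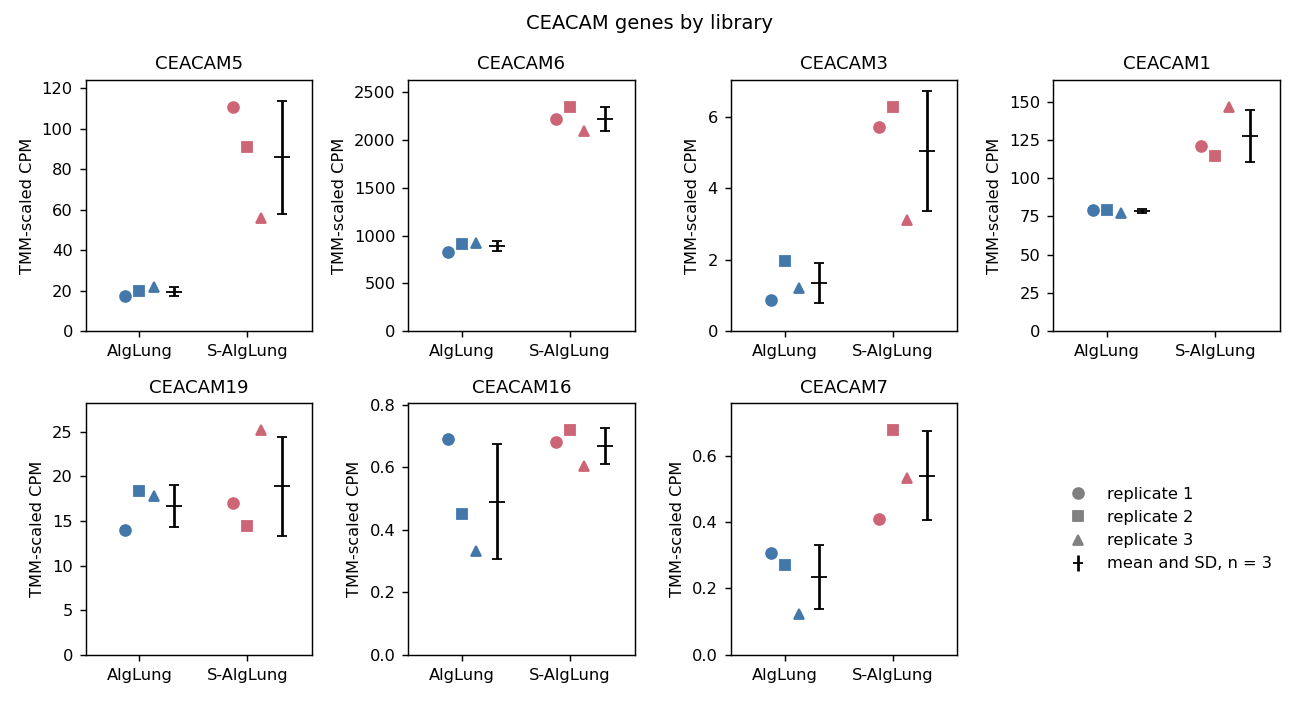
TMM-scaled CPM (y axis, linear from 0) of 7 CEACAM genes in each of the 6 libraries, AlgLung in blue and S-AlgLung in red, with the mean and SD of 3 libraries beside the points. The S-AlgLung points lie above all AlgLung points for CEACAM5, CEACAM6, CEACAM3, CEACAM1 and CEACAM7, and the groups overlap for CEACAM19 and CEACAM16.

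CEACAM5 (ENSG00000105388), the carcinoembryonic antigen, was measured at 17.3, 19.7 and 21.8 CPM in AlgLung and at 111.0, 91.1 and 55.9 CPM in S-AlgLung replicates 1, 2 and 3. The 3 AlgLung libraries were close together, while the S-AlgLung libraries were spread, with replicate 3 the lowest, and the groups did not overlap. The means were 19.6 ± 2.25 and 86.0 ± 27.9 CPM (SD, n = 3 each). The difference was 2.13 with a standard error (SE) of 0.25, a 4.38-fold higher level (edgeR adjusted p = 1.748e-06, 95% interval 1.64 to 2.62). Leaving out S-AlgLung replicate 3 gave 2.33, and leaving out S-AlgLung replicate 1 gave 1.91. This was the largest difference among the 6 tested members.

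CEACAM6 (ENSG00000086548), the GPI-anchored member that opposes cell death upon loss of attachment in other cancer cell lines, was the most abundant CEACAM gene in every library. It was measured at 825.4, 908.1 and 924.1 CPM in AlgLung and at 2216, 2346 and 2097 CPM in S-AlgLung. Both groups were tight and lay far apart. The means were 885.9 ± 53.0 and 2220 ± 124.4 CPM (SD, n = 3 each), a difference of 1.33 with SE 0.27, or 2.51-fold (edgeR adjusted p = 0.001875, 95% interval 0.80 to 1.85). Ranked by counts among all genes, CEACAM6 was at place 104, 121 and 106 in the AlgLung libraries and at place 44, 42 and 30 in the S-AlgLung libraries. Its mean log2 CPM exceeded that of 99.65% of tested genes. Without S-AlgLung replicate 3 the difference was 1.33. It was 1.23, 1.34 and 1.31 without AlgLung replicates 1, 2 and 3, with edgeR adjusted p of 0.0335, 0.0305 and 0.0433.

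CEACAM3 (ENSG00000170956), a granulocyte receptor that triggers uptake of CEACAM-binding bacteria through an activating motif in its cytoplasmic tail, was scarce. Its counts were 23, 44 and 29 in AlgLung and 126, 149 and 88 in S-AlgLung, which gave 0.882, 1.98 and 1.20 against 5.71, 6.29 and 3.13 CPM. The groups did not overlap, and S-AlgLung replicate 3 was again the lowest of its group. The difference was 1.90 with SE 0.34, or 3.73-fold (edgeR adjusted p = 0.0004615, 95% interval 1.24 to 2.56), between means of 1.35 ± 0.564 and 5.04 ± 1.69 CPM (SD, n = 3 each). It was 2.13 without S-AlgLung replicate 3 and 2.27 without AlgLung replicate 2. Counts of this size leave CEACAM3 the least precise of the called members. Reads of the far more abundant CEACAM6 assigned to CEACAM3 could add to these counts, which was not tested.

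CEACAM1 (ENSG00000079385) is a transmembrane receptor whose long isoform carries inhibitory motifs that bind the phosphatases SHP-1 and SHP-2. It was measured at 78.9, 79.4 and 77.3 CPM in AlgLung and at 121.1, 114.8 and 146.7 CPM in S-AlgLung. The groups did not overlap, as was the case with S-AlgLung above for 10.4% of all tested genes and in either direction for 18.4%. S-AlgLung replicate 3, the lowest of its group for CEACAM5, CEACAM6 and CEACAM3, was the highest for CEACAM1. The means were 78.5 ± 1.11 and 127.5 ± 16.9 CPM (SD, n = 3 each). The difference of 0.70 (SE 0.23, 1.62-fold) was not called with edgeR (adjusted p = 0.0787, 95% interval 0.25 to 1.15). It was called by the Wald test of DESeq2 (0.68, adjusted p = 0.0132), and the range over the 13 alternatives was 0.55 to 0.77 with adjusted p of 0.0132 to 0.533.

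CEACAM19 and CEACAM16, the members furthest along the chromosome, did not pass the threshold. CEACAM19 (ENSG00000186567), a transmembrane member, was measured at 14.0, 18.4 and 17.8 CPM in AlgLung and at 17.1, 14.5 and 25.2 CPM in S-AlgLung. The groups overlapped, with S-AlgLung replicate 3 the highest library of all. The difference was 0.18 with SE 0.23 (edgeR adjusted p = 0.819, 95% interval -0.27 to 0.63), and it turned to -0.12 without S-AlgLung replicate 3 (adjusted p = 0.807). CEACAM16 (ENSG00000213892), a secreted protein of the inner ear's tectorial membrane, had 18, 10 and 8 counts in AlgLung and 15, 17 and 17 in S-AlgLung. These counts were low in both hydrogels, and the difference of 0.43 had an SE of 0.45 (edgeR adjusted p = 0.761, 95% interval -0.46 to 1.32). That interval spans changes in both directions, so no direction was set for CEACAM16 at this depth.

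Among the 4 untested members, CEACAM7 (ENSG00000007306), a GPI-anchored protein of colon epithelium, had 8, 6 and 3 counts in AlgLung and 9, 16 and 15 in S-AlgLung. The CPM values of the groups did not overlap, but the totals were only 17 and 40 counts. CEACAM8, the granulocyte surface protein CD66b, had 0, 3 and 2 counts in AlgLung and 0, 0 and 2 in S-AlgLung. CEACAM21, a transmembrane member, had 1 count, in AlgLung replicate 3. CEACAM4, a granulocyte receptor related in its cytoplasmic motif to CEACAM3, had 0 counts in all 6 libraries, which allows up to 3 counts a library, or 0.107 to 0.136 CPM (counting error only).

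**Figure D2:**
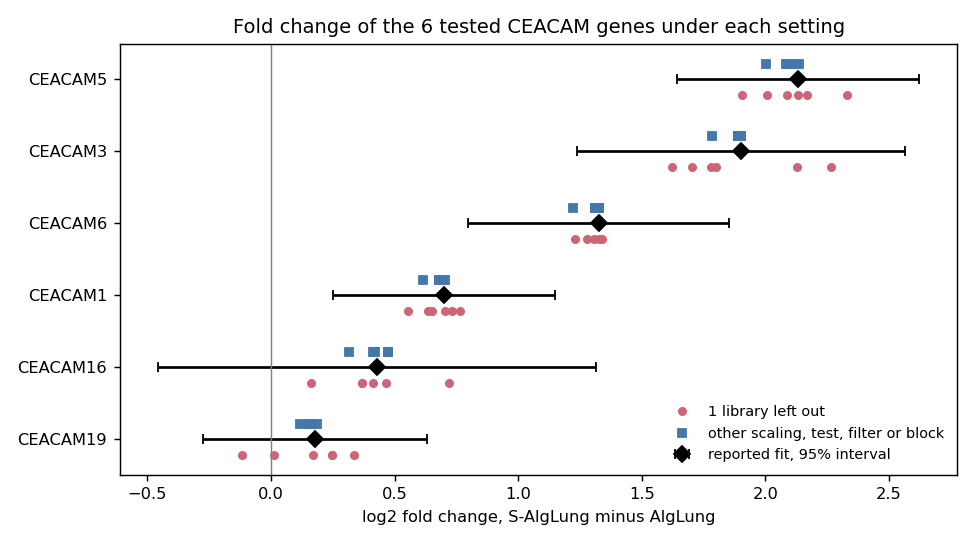
Log2 fold change of the 6 tested members (x axis, S-AlgLung minus AlgLung): the reported value with its 95% interval (black), values with 1 library left out (red) and values under another scaling, test, filter or block (blue). All values of CEACAM5, CEACAM3, CEACAM6 and CEACAM1 lie above 0, while CEACAM19 reaches -0.12 with 1 library left out.

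Levels can be compared between members only per length, as RPKM (the same TMM-scaled CPM divided by the table's exon length in kb). In AlgLung the order was CEACAM6 at 300 ± 17.9, CEACAM1 at 14.2 ± 0.201, CEACAM5 at 4.92 ± 0.563 and CEACAM19 at 3.23 ± 0.459 RPKM (SD, n = 3), with no overlap between neighbours. CEACAM3 at 0.462 ± 0.193 and CEACAM16 at 0.289 ± 0.108 RPKM followed, and their libraries overlapped, so their order is not set. In S-AlgLung CEACAM6 stood at 751 ± 42.1 RPKM. CEACAM1 at 23.1 ± 3.05 and CEACAM5 at 21.6 ± 7.01 RPKM overlapped there. CEACAM19 at 3.65 ± 1.08, CEACAM3 at 1.72 ± 0.575, CEACAM16 at 0.393 ± 0.0341 and CEACAM7 at 0.203 ± 0.0505 RPKM followed without overlap between neighbours. Thus CEACAM5 lay below CEACAM1 in each AlgLung library, and above it in S-AlgLung replicates 1 and 2. In replicate 2 the gap was small, at 22.9 against 20.8 RPKM. This order depends on the exon lengths used, 3986 bases for CEACAM5 and 5527 for CEACAM1, and the transcripts present were not resolved.

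**Figure D3:**
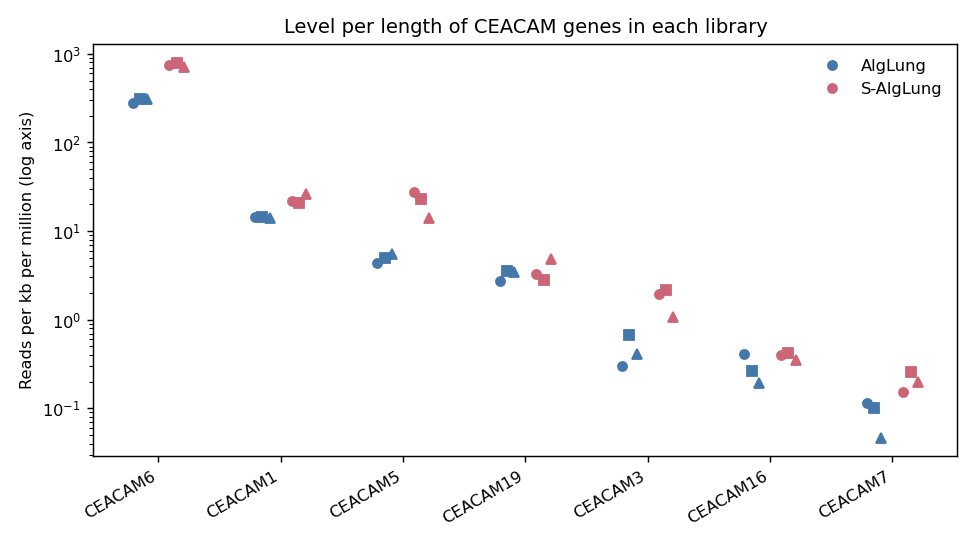
RPKM (y axis, log scale) of 7 CEACAM genes in each library, with AlgLung in blue, S-AlgLung in red, and circle, square and triangle for replicates 1, 2 and 3. CEACAM6 lies above every other member in both hydrogels, and CEACAM5 reaches the level of CEACAM1 in S-AlgLung, where their libraries overlap.

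The 10 members together took 0.103%, 0.0995% and 0.109% of all counts in the AlgLung libraries and 0.226%, 0.230% and 0.255% in the S-AlgLung libraries. Summed into 1 value, so that reads swapped between members would not matter, the family differed by 1.29 on the log2 CPM scale (1.19 with total counts in place of TMM). CEACAM6 made up most of that sum, with 88.0% to 88.6% of family counts in the AlgLung libraries and 89.6% to 91.1% in the S-AlgLung libraries. Within the family the balance among the others differed between the groups. For every 100 CEACAM6 counts, CEACAM5 had 2.10, 2.17 and 2.36 counts in AlgLung and 5.01, 3.89 and 2.67 in S-AlgLung. CEACAM1 had 9.56, 8.74 and 8.36 counts per 100 of CEACAM6 in AlgLung and 5.47, 4.89 and 6.99 in S-AlgLung. So CEACAM5 was higher and CEACAM1 lower relative to CEACAM6 in each S-AlgLung library than in any AlgLung library. CEACAM3 had 0.107, 0.218 and 0.1299 counts per 100 of CEACAM6 in AlgLung and 0.258, 0.268 and 0.149 in S-AlgLung, and these groups overlapped. In all 3 ratios S-AlgLung replicate 3 was the S-AlgLung library closest to the AlgLung values.

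**Figure D4:**
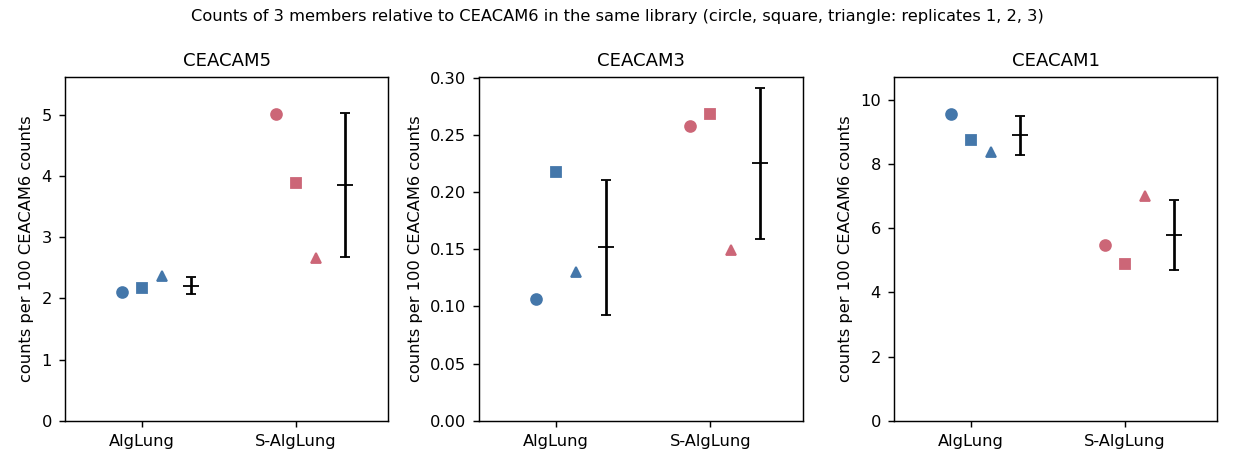
Counts of CEACAM5, CEACAM3 and CEACAM1 per 100 CEACAM6 counts in the same library (y axes, linear from 0), with the mean and SD of 3 libraries per hydrogel. The CEACAM5 ratio is 2.67 to 5.01 in S-AlgLung and 2.10 to 2.36 in AlgLung, and the CEACAM1 ratio is 4.89 to 6.99 in S-AlgLung and 8.36 to 9.56 in AlgLung.

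Another row of the table bears on CEACAM5 and CEACAM6. A gene model on the same strand (ENSG00000267881) joins 139 bases of a CEACAM5 exon (chr19:41708657-41708795) to 138 bases of the CEACAM6 exon shown above, and all of its 277 exonic bases lie in exons of these members. It had 41261 counts over the 6 libraries, against 7597 for CEACAM5 and 227506 for CEACAM6. Per 100 CEACAM6 counts it had 16.9, 16.9 and 17.8 in AlgLung and 18.0, 19.6 and 17.9 in S-AlgLung. Its difference was 1.43 with SE 0.25 (edgeR adjusted p = 0.0003189), between those of CEACAM6 and CEACAM5. Whether its reads were also counted for CEACAM5 or CEACAM6, or were taken from them, no source used here states. The shared bases are 3.49% of the CEACAM5 exons and 4.67% of the CEACAM6 exons. The share of overlapping bases was smaller for CEACAM1 (3.35% of exonic bases, with LIPE-AS1 on the other strand) and CEACAM19 (2.34%, with PVR on the same strand). It was 1.59% for CEACAM16, with its antisense gene, and CEACAM3 overlapped none. PVR had 13212 counts over the 6 libraries against 2630 for CEACAM19, and the antisense gene had 552 against 85 for CEACAM16. LIPE-AS1 had 4469 against 15209 for CEACAM1. How many of these reads lie in shared bases was not tested.

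Other branches of the family were nearly silent. Of 13 further CEACAM and PSG symbols, CEACAM18, CEACAM20, CEACAM22P and the PSG genes, none reached the filter, and the largest total over 6 libraries was 41 counts, for PSG5. The PSG genes encode glycoproteins secreted by the placenta. They lie on the same chromosome between CEACAM1 and CEACAM8 on one side and CEACAM19 and CEACAM16 on the other.

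The genes around the members on the chromosome were read from the same fit, in which 3.15% of all tested genes were called higher and 1.99% lower. Of 159 other genes that start within 500 kb of a member, 72 were tested, 4 were called higher and none lower, and their median difference was 0.16 against 0.03 over all tested genes. The 4 were ERFL, an ETS-family repressor-like gene (2.22, SE 0.32, edgeR adjusted p = 3.2e-05), POU2F2, the transcription factor OCT2 of B cells (2.14, SE 0.48, adjusted p = 0.00491), BCAM (1.09, SE 0.30, adjusted p = 0.0244) and NKPD1 (2.99, SE 0.55, adjusted p = 0.000678). These names were given after their values were seen. ERFL rose from 1.10 ± 0.146 to 5.17 ± 1.72 CPM, while POU2F2 and NKPD1 were below 1 CPM in AlgLung, at 0.247 and 0.149. POU2F2 was not called without AlgLung replicate 2 (adjusted p = 0.06995). The groups overlapped for BCAM, which was called under 8 of 13 alternatives. Between CEACAM21 and CEACAM3 the table holds 8 other genes besides the readthrough model, and none had enough reads to be tested. RPS19 and ARHGEF1, the abundant genes next to CEACAM3, differed by 0.09 and 0.10 and were not called.

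**Figure D5:**
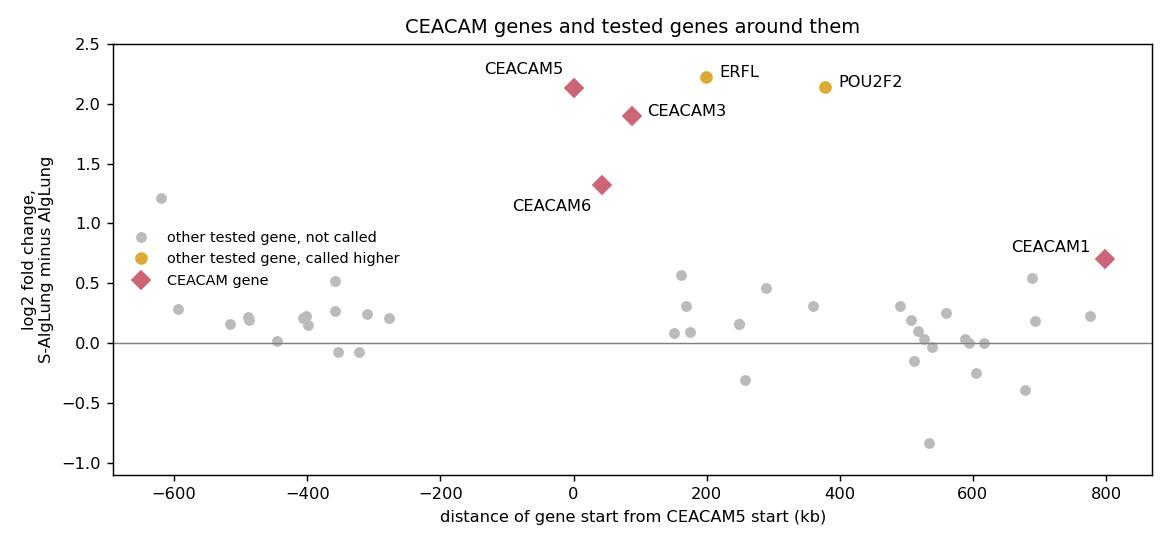
Log2 fold change (y axis, S-AlgLung minus AlgLung) of tested genes by the distance of their start from the CEACAM5 start in kb (x axis), with CEACAM genes as red diamonds, other called genes in yellow and the rest in grey. Among the genes drawn, CEACAM5, CEACAM3, CEACAM6, ERFL and POU2F2 stand above 1, as does 1 gene that was not called (CYP2A13, 1.21). NKPD1 and BCAM lie beyond the plotted range, and the readthrough model is not drawn.

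Among the extracellular partners, cytoplasmic effectors, linked transcription factors and GPI anchor machinery, no tested gene was called. Over all tested genes 5.14% were called. At that share, lists of this length would hold few calls or none, so nothing is read from this absence. Of 17 extracellular partners, such as integrins, TIM-3 and growth factor receptors, 11 were tested and edgeR called 0 (median -0.01, with 2 at an unadjusted p under 0.05, and 0 called by DESeq2 and by limma-voom). The 2 with the smallest p were the integrin chain ITGB1 at 1052 ± 211.8 and 686.6 ± 28.3 CPM (-0.62, adjusted p = 0.246) and the insulin receptor INSR (0.51, adjusted p = 0.283). Of 22 cytoplasmic effectors, which include SRC-family kinases and the SHP phosphatases, 19 were tested and edgeR called 0 (median -0.13, 2 at an unadjusted p under 0.05, 0 by DESeq2 and limma-voom). VAV1 (0.55, adjusted p = 0.229) and PIK3R1, a regulatory subunit of PI3-kinase (-0.49, adjusted p = 0.330), had the smallest p.

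Of 18 transcription factors linked to CEACAM genes, 17 were tested and edgeR called 0 (median 0.11, 5 at an unadjusted p under 0.05, 0 by DESeq2 and limma-voom). KLF4, a factor of epithelial differentiation, was at 8.47, 5.84 and 5.09 CPM in AlgLung and 9.52, 7.18 and 19.9 CPM in S-AlgLung (0.92, adjusted p = 0.0701). Its highest library was S-AlgLung replicate 3, the groups overlapped, and a gene on the other strand with 26.5% as many counts shares 9.75% of its exonic bases. CDX2, an intestinal homeobox factor, was at 0.921 ± 0.180 and 1.77 ± 0.384 CPM (0.93, adjusted p = 0.189).

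The machinery that makes and attaches the GPI anchor was tested in full, 27 of 27 genes, and edgeR called 0 (median 0.11, 0 at an unadjusted p under 0.05, 0 by DESeq2 and limma-voom). The smallest p belonged to PIGT (0.42, adjusted p = 0.486), a subunit of the transamidase that attaches the anchor, and PIGH (0.35, adjusted p = 0.546), a subunit of the enzyme of the first step. Of 23 other GPI-anchored surface proteins, 19 were tested, with a median of 0.37. Among them 2 were called higher and 0 lower, against 3.15% and 1.99% over all tested genes. The gene CPM, which encodes carboxypeptidase M, rose from 17.1 ± 3.48 to 48.8 ± 11.1 on the CPM scale (1.51, SE 0.23, edgeR adjusted p = 6.735e-05). EFNA1, the ephrin A1 ligand, rose from 35.6 ± 6.11 to 64.9 ± 10.0 CPM (0.87, SE 0.22, adjusted p = 0.0167), a call lost with total-count scaling (adjusted p = 0.0622), without AlgLung replicate 1 (0.216) and without AlgLung replicate 3 (0.159).

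Other adhesion genes of the immunoglobulin family moved in both directions. Of 27, 18 were tested, with 2 called higher and 2 lower (3.15% and 1.99% over all tested genes), and a median of 0.02. L1CAM, a neural adhesion molecule, fell from 12.5 ± 0.998 to 2.09 ± 0.440 CPM (-2.59, SE 0.26, edgeR adjusted p = 1.435e-07), with groups that did not overlap. MCAM fell from 2.87 ± 0.377 to 1.09 ± 0.377 CPM (-1.39, SE 0.34, adjusted p = 0.0110), but it had only 288 counts in all and shares 6.86% of its exonic bases with CBL on the other strand, which had 3039. Its adjusted p was 0.0706 without AlgLung replicate 2 and 0.0922 without S-AlgLung replicate 1. BCAM, the Lutheran antigen that binds laminin, was at 329.0, 387.9 and 298.3 CPM in AlgLung and 978.3, 800.5 and 381.4 CPM in S-AlgLung. Its groups overlapped, and the call was lost with limma-voom (adjusted p = 0.0573) and without each of the AlgLung libraries or S-AlgLung replicate 1 (0.114 to 0.218). CADM2, the remaining call, was at 1.53 ± 0.481 and 3.26 ± 0.351 CPM (1.09, SE 0.32, adjusted p = 0.0393), and was not called with total-count scaling (0.180) or without AlgLung replicate 2, AlgLung replicate 3 or S-AlgLung replicate 1 (0.0986 to 0.362).

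Some CEACAM genes are known from granulocytes, and markers of other cell types were therefore read beside them. In bulk RNA, more cells of a type and more RNA per cell cannot be told apart. Shares called over all tested genes were 3.15% higher and 1.99% lower. Of 13 granulocyte markers, 6 had 0 counts in all libraries (S100A8, S100A12, FCGR3B, CXCR2, MMP8 and MPO). The summed level of the list ranged over 3.01 to 4.02 CPM in the AlgLung libraries and 7.43 to 8.32 CPM in the S-AlgLung libraries, carried by ITGAM (0.98, adjusted p = 0.0405) and ELANE (1.39, adjusted p = 0.00935), the 2 list genes tested and both called higher. Of 12 leukocyte markers, summed at 89.2 to 133.2 CPM in AlgLung and 188.1 to 239.7 CPM in S-AlgLung, the pan-leukocyte gene PTPRC had 5 counts and the T-cell gene CD3E had 2. Of its 4 tested genes, CD14 (0.85, adjusted p = 0.0225) and CD68 (0.98, adjusted p = 0.0138) were called higher. Whether the rise of these 4 genes has a part in the CEACAM values was not tested. CD68 shares 81.6% of its exonic bases with a more abundant gene model on the same strand. Fibroblast markers, 0 of 3 tested called, were summed at 9.58 to 9.85 and 8.28 to 10.2 CPM. Endothelial markers, 0 of 3 tested called, were summed at 68.99 to 80.8 and 54.3 to 146.8 CPM, mostly EGFL7. The epithelial list, 0 of 7 tested called, was lowest in S-AlgLung replicate 3, at 4492 CPM, against 8219 to 13260 CPM in the other libraries. That sum was mostly KRT8 (-0.52) and KRT18 (-0.55), and KRT19 was also lower (-0.19). The other tested genes of the list were higher: EPCAM (0.97), MUC1 (0.70), NAPSA (0.58) and CDH1 (0.33). The median difference of the list was 0.33.

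The genes whose log2 CPM over the 6 libraries was most like that of the 2 most abundant members were listed among 11517 genes with a symbol and a mean log2 CPM of at least 2. Since 6 libraries fall into 2 groups, high values are common. For CEACAM6, 132 genes had a Pearson r above 0.95, led by PTPRH, a receptor tyrosine phosphatase (0.993), SCIN, an actin-severing protein (0.993), CFB, complement factor B (0.993), ZNF324B (0.993) and KIAA0319L (0.992). For CEACAM1, 164 genes did, led by SNED1 (0.997), PARM1 (0.997), MANSC1 (0.996), CEMIP, a hyaluronan-degrading protein (0.995), and GPRC5B (0.994). CFB shares 42.3% of its exonic bases with a same-strand gene model of similar count, and SNED1 and GPRC5B share 36.7% and 26.7% with a gene on the other strand. Among members, CEACAM5 followed CEACAM6 at r = 0.973, CEACAM3 followed CEACAM5 at 0.9504 and CEACAM6 at 0.932, and CEACAM1 followed CEACAM6 at 0.929. CEACAM19 was at 0.095 with CEACAM5 and 0.504 with CEACAM1. These values describe 6 libraries that share their groups and scaling, and carry no test.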

How the data were processed

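RNA was sequenced from 6 libraries of A549 cells, 3 per hydrogel. The authors used STAR 2.7.3a, featureCounts and GRCh38, per the submitters' processing notes. No source used here gives the counting options, the annotation or whether strand was used. The deposited table holds whole-number read counts, not normalized. AlgLung replicate 1 had 2 columns in which 0 genes differed, used once. Gene names were found for 62625 of 62703 IDs, 42300 of them with a symbol.

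Genes passing filterByExpr (minimum count 10) were scaled with TMM. EdgeR 4.0.16 (R 4.3.3) gave quasi-likelihood F tests, fitted with hydrogel only and adjusted by Benjamini-Hochberg over all 18544 genes. The SE is the absolute log2 fold change over the root of F, and 95% intervals are 1.96 SE either way. Counting precision follows from the total counts, 22978408 to 26495444 a library. Alternatives were DESeq2 1.42.0 size factors and Wald test, limma-voom (limma 3.58.1), total counts, other filters, a replicate block and each library left out. The script was tested on simulated counts. Members and gene lists were chosen with earlier results of these data known. Named genes were all members, up to 3 called genes per list by p (up to 2 where none was called), and the 5 genes most like each of the 2 most abundant members. Beyond this rule, markers come from the marker lists, and CADM2, the called neighbours, RPS19, ARHGEF1 and CYP2A13 were named after their values were seen.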

Additional observations from a re-analysis of the deposited data

How the results depend on the processing

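CEACAM5, CEACAM6 and CEACAM3 were called higher under all 13 alternatives run, and 0 members were called lower under any. CEACAM6 came closest to losing its call, at an edgeR adjusted p of 0.0433 without AlgLung replicate 3. Whether the replicate numbers pair the libraries was not settled. Same-numbered deviations from the group means correlated at 0.072, 0.285 and 0.041, and 0.285 was the highest correlation between libraries of different hydrogels. But AlgLung replicate 1 was closer to S-AlgLung replicate 3 (0.208), and AlgLung replicate 3 to S-AlgLung replicate 2 (0.094). With a replicate block 1300 genes were called in place of 953, and all 953 were among them. CEACAM1 was then called as a further member (0.69, edgeR adjusted p = 0.0425), as it was with the DESeq2 Wald test. Under the replicate block 800 genes were higher and 500 lower, with 8 genes of the 7 pathway lists and 5 near the members. Across the table, genes called higher numbered 584, but 333 with total-count scaling, which shifted the median log2 fold change of all genes by -0.10 and gave 335 lower, and 289 (without AlgLung replicate 1) to 891 (without S-AlgLung replicate 3) with 1 library left out. Genes called lower numbered 369, and 244 to 662 with 1 left out. Genes of the 7 pathway lists called numbered 6, and 3 to 8 with 1 left out. Genes called near the members numbered 4, but 2 under a filter at a mean of 1 CPM, which removes POU2F2 and NKPD1, and 2 to 9 with 1 left out. KLF4, not called, was called under 3 of 13 alternatives. CEACAM19 turned to -0.1165 without S-AlgLung replicate 3, in a range of -0.1165 to 0.3347. The cause of these shifts was not tested. Depth limits CEACAM16, CEACAM3, CEACAM7 and the other untested members most.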
